A study of Drosophila melanogaster with 2 samples.

Results

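Of 2892 regions on the thresholded CG1792 peak list, 379 (13.1%) were intronic peaks near gene starts. Their summits, the positions of highest signal, lay inside an annotated gene but in no annotated exon. Each summit was more than 500 bp from every gene or transcript start and at most 2000 bp from the nearest start of a protein-coding transcript. The other peaks comprised 1608 within 500 bp of a start, 531 intronic peaks farther than 2000 bp from a protein-coding start, 302 between genes and 72 in exons. The values came from chromatin immunoprecipitation with sequencing (ChIP-seq) of whole Drosophila melanogaster embryos aged 0 to 24 h, males and females pooled, that carried a transgene for CG1792 with GFP at its C terminus. The precipitation used anti-GFP, while a separate antibody label names CG1792. Both libraries, biological replicates 2 and 3, belonged to this 1 group, so no condition was contrasted. Whole embryos of this age range mix all cell types and stages, and a transgenic fusion was mapped in place of the untagged protein.

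CG1792 is a zinc finger protein of the fly family that carries a zinc-finger associated domain, in which the N-terminal domain pairs proteins and the zinc fingers read DNA. Many fly genes have long first introns, and sequence in the first kilobases after a start often holds enhancers and alternative promoters. A ChIP-seq summit inside an intron can therefore lie near the main promoter of its gene, ahead of a promoter used by a shorter transcript, or beside the promoter of a nested or neighbouring gene. All 3 arrangements occurred among the 379 peaks.

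The sequences show what most of these peaks had in common, a core rich in A and T. In the window from 50 bp before to 50 bp after the strongest summit, in an intron of ush (chr2L:481030-481130, dm6, plus strand), GC content was 26.7%, while the window of equal size 300 bp away (chr2L:481330-481430) had 53.5%. The windows of other strong summits, in CG11050 (chr2L:6612654-6612754) and in ph-p (chrX:2137306-2137406), had 22.8% and 32.7%. Capitals mark runs of at least 6 A or T bases.
ush summit: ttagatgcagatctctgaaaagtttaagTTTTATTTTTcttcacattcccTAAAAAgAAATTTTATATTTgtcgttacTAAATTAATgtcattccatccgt
ush flank: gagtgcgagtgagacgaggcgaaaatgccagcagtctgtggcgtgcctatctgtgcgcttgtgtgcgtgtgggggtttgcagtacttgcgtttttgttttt
CG11050 summit: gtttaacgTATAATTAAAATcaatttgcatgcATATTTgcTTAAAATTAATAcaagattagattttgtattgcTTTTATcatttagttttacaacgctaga
ph-p summit: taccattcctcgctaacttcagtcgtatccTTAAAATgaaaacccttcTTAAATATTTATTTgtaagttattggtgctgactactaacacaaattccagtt

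A second set shows a 7-base word that recurred beside summits. ACAGTGG, or its reverse complement CCACTGT, lay on both sides of the summit and read toward it in 5 of the 379 peaks within 100 bp, against 3 of 3334 similarly placed regions left off the list. The arrangement was also in 6 of the 531 intronic peaks far from starts and in 6 of the 1608 peaks at starts. The word and its direction were chosen from these same 379 peaks, so the contrast with regions left off the list is partly built in and was not tested. The word was called with windows of 100 bp to either side of the summit, but not with 50 bp. Of the 5 peaks near starts, 4 on the X were hosted by NFAT (chrX:13640410-13640610), CG1737 (chrX:11351428-11351628), CG32767 (chrX:5083694-5083894) and Hgsnat (chrX:4919587-4919787). In this order their GC content within 50 bp of the summit was 29.7%, 40.6%, 36.6% and 41.6%, so not all 4 had a core rich in A and T. Here capitals mark the word in either direction on the plus strand, 100 bp to either side of the summit.
NFAT: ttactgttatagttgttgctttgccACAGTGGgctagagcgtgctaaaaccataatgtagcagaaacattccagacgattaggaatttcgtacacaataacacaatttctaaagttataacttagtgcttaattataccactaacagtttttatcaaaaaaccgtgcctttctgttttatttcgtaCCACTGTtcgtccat
CG1737: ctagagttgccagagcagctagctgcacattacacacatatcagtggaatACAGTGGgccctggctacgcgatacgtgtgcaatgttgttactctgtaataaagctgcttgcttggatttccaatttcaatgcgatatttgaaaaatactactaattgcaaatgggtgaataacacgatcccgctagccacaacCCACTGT
CG32767: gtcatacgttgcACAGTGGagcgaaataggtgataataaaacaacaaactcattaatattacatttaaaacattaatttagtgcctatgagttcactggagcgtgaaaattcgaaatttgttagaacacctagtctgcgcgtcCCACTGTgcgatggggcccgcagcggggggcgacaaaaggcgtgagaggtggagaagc
Hgsnat: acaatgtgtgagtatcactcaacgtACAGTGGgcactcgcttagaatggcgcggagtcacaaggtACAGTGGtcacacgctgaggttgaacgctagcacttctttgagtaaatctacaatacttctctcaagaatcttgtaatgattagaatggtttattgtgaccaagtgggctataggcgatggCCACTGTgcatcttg

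The signal of a peak, its strength as the authors' peak calling gave it, ranged from 66.97 to 1589 over the 379 peaks, with a median of 105.6 and quartiles of 81.04 and 152.4. The scale of the signal is not stated, so values were compared within a list. The strongest peak of the whole list was that of ush. Its signal was 1589 on the thresholded list, 761.5 in replicate 2, where it ranked 2, and 833.1 in replicate 3, where it ranked 1. ush encodes a cofactor of GATA transcription factors, and this peak lay 1392 bp upstream of the start of its neighbour cbt, a start which itself held a peak. The next, in CG11050, had a signal of 1113, with 459.6 in replicate 2 (rank 7) and 654.7 in replicate 3 (rank 3), and lay 1017 bp after a start of its gene, in an intron of 140 bp. Lk6, the kinase that phosphorylates the cap-binding factor eIF4E, held a peak of signal 990.2 at 975 bp before an internal start, with 455.1 in replicate 2 (rank 8) and 536.1 in replicate 3 (rank 7). ph-p encodes a subunit of a Polycomb repressive complex, and its peak of signal 976.9 had 448.5 in replicate 2 (rank 10) and 533.4 in replicate 3 (rank 8). These 4 peaks ranked among the 10 strongest in each replicate. Among the 25 strongest peaks of the list 7, and among the 100 strongest 16, were intronic peaks near starts.

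Below them came CG9663 (signal 788), CG32772 (738) and cno (698.1), which encodes the junction protein Canoe and whose peak ranked 30 in replicate 2 and 21 in replicate 3. Adf1, a transcription factor gene, held a peak of signal 638 at 797 bp after its start, with rank 24 in replicate 2 and 38 in replicate 3. The phospholipase gene norpA (509.5), the insulin receptor gene InR (483.6) and the GAGA factor gene Trl (457.6) followed. A peak of signal 445.2 lay inside both HmgZ and HmgD, which encode HMG-box chromatin proteins. The 25 strongest members that both replicates held among their strongest regions, as many as the list has, reached down to a signal of 298.3 (rank 152, in CG31635). None of the 25 ranked below 234 in replicate 2 or 236 in replicate 3. They also lay in CG3726, CG9837, NFAT, LPCAT, Reph, KCNQ, wde (a partner of a histone H3 lysine methyltransferase), Fem-1, chif (shared with Hyls1), for (a cGMP-dependent protein kinase), SCaMC and Csk, the kinase that restrains Src proteins. Of these 25 peaks, 23 lay in a first intron, 13 in a gene that also had a peak at one of its starts, and 21 had a lower GC content at the summit than 300 bp away.

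Most of the peaks recurred among the strongest regions of both replicates. With as many regions taken from each replicate as the list has, 260 of the 379 (68.6%, 95% Wilson interval 63.8 to 73.1) had a summit within 100 bp in both. The share was 64.2% (60.1 to 68.2) of the intronic peaks far from starts and 67.0% (64.7 to 69.3) of the peaks at starts, and neither difference passed Fisher's exact test, two-sided (odds ratios 1.22 and 1.07; adjusted p = 0.355 and 0.584). The list was itself built on agreement of the replicates, so only the difference between classes was tested. Support was lower for weaker peaks, from 95 of 95 among the strongest 25% of the members to 14 of 94 among the weakest. The pooled signal came from the same 2 libraries, so this order is in part built into the measure. In the full lists of 30000 regions, 365 of the 379 peaks had a partner within 100 bp in both replicates, 9 had none in replicate 2 and 6 none in replicate 3. One of these was the weakest HmgZ peak (signal 98.86), which had a partner in neither replicate. Such tests count peaks of 1 pooled experiment and do not measure the spread between embryo collections.

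**Figure D1:**
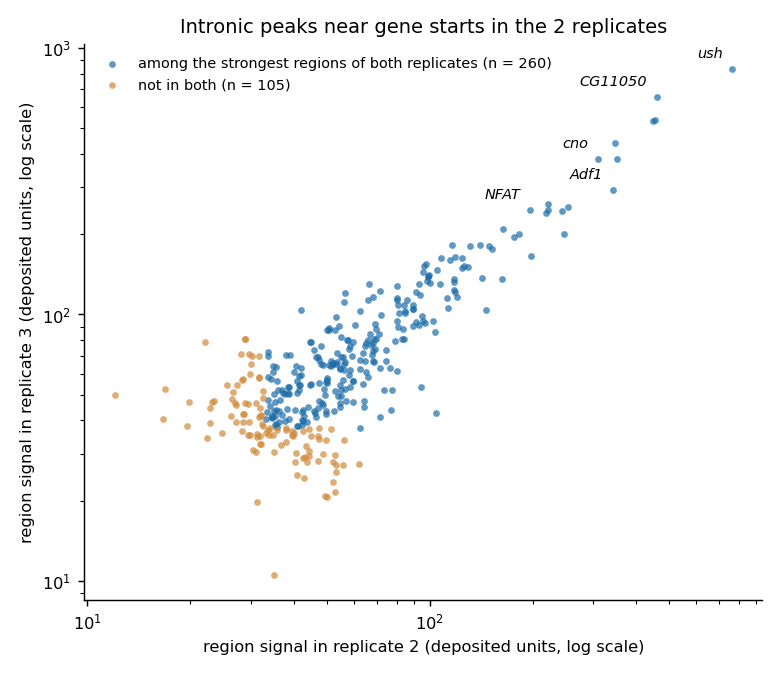
Signal of each intronic peak near a start in replicate 2 (horizontal) and replicate 3 (vertical), both on log scales in the deposited units, for the 365 peaks with a partner in both lists. The 260 among the strongest regions of both replicates are blue and the other 105 orange; ush stands at the upper right with 761.5 and 833.1.

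Strong peaks were less frequent deep in introns than near starts. Of the 379 peaks, 102 (26.9%, 22.7 to 31.6) were among the 723 strongest of the list. These 723 are by definition 25% of all peaks, so the share near starts was close to that of the whole list. Among intronic peaks far from starts it was lower, with 106 (19.96%, 16.8 to 23.6). This difference passed Fisher's exact test (two-sided, odds ratio 1.48; adjusted p = 0.0324). Against peaks at starts, of which 26.6% were in this class, it did not (odds ratio 1.02, adjusted exact p = 0.897). In the exact test on single lists, the first call was lost without replicate 3 (odds ratio 1.31, adjusted p = 0.204; 1.63 and 0.00406 without replicate 2), and it was lost in the stronger part of the list (1.67, adjusted p = 0.058) and when starts were kept clear by 1000 bp (1.29, adjusted p = 0.433).

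Within the pooled list of 30000 regions, 3713 met the position rule and 379 of these (10.2%, 9.27 to 11.2) were on the thresholded list. The share over all 30000 regions was 9.64%, so the share near starts was close to that of the whole. It was 6.89% (6.34 to 7.47) for introns far from starts and 16.7% (16.01 to 17.5) at starts. Per Mb of sequence that met each rule, there were 37.5 peaks in near-start introns, 12.4 in introns farther away and 88.6 around starts. The other 3334 pooled regions that met the rule, called background regions here, met the same position rule and were measured in the same libraries.

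Both measures were lower farther from the start. From 501 to 750 bp, 102 peaks gave 51.4 per Mb and 12.4% (10.3 to 14.8) of pooled regions were on the list. From 1751 to 2000 bp, 38 peaks gave 27.2 per Mb and 8.50% (6.26 to 11.5). Beyond the outer bound, up to 2500 bp, the values were 24.8 per Mb and 8.37% (6.59 to 10.6), so the class has no edge at 2000 bp. The median distance was 1021 bp, with quartiles of 730.5 and 1426. The median signal did not follow the distance: it was 112.3 in the first of these bins and 110.0 in the last.

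**Figure D2:**
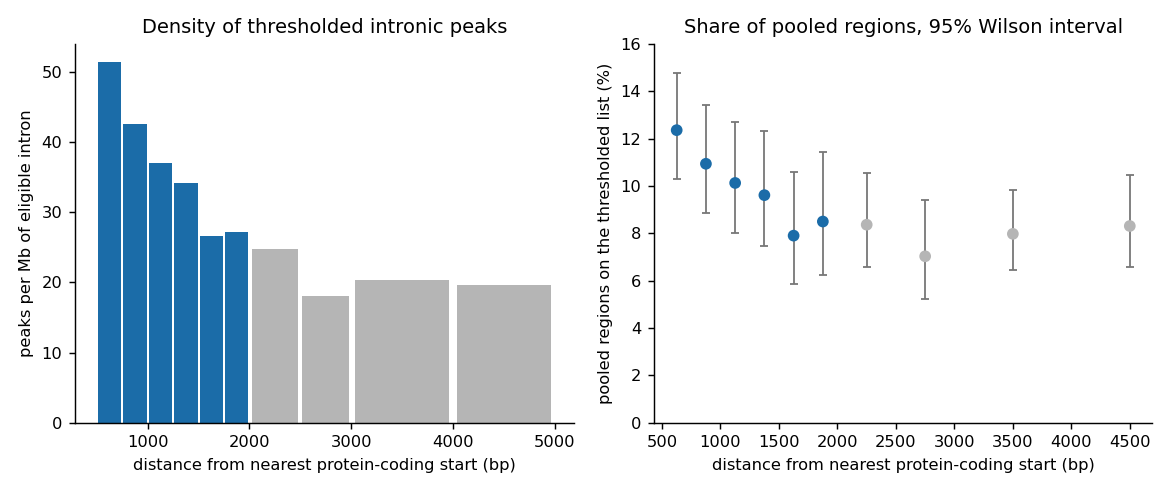
Intronic peaks by distance from the nearest protein-coding start, as peaks per Mb of intron that met the rule (left) and as the percentage of pooled regions on the thresholded list with 95% Wilson intervals (right). Blue marks the intronic peaks near starts, from 51.4 per Mb at 501 to 750 bp to 27.2 at 1751 to 2000 bp, and grey those farther away.

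At the inner bound, which counts the distance to any gene or transcript start, the summits just inside were the ph-p peak at 501 bp (signal 976.9) and one in Sclp at 503 bp (76.21), which was 1683 bp from its nearest protein-coding start. Those just outside lay at 498 bp in Ctps (75.53) and in pug (68.92). At the outer bound, which counts protein-coding starts, the last summits inside were in CG9171 at 1974 bp (91.24) and in bun at 1968 bp (74.43), and the first outside were in CHES-1-like at 2005 bp (92.66) and in Kdm2 at 2006 bp (106.2).

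For 237 of the peaks (62.5%), the nearest protein-coding start belonged to the host gene and the summit lay downstream of it. Another 112 (29.6%, 25.2 to 34.3) lay upstream of an internal start of the host, as at Lk6, ph-p, InR and Trl. This arrangement held 22.5% (21.1 to 23.9) of background regions. For the other 30 peaks (7.92%), the nearest start belonged to another gene, as at ush, against 11.6% (10.6 to 12.8) of background regions. These comparisons with background regions were chosen after the values were seen and carry no test. First introns of at least 1 transcript held 323 of the 379 peaks (85.2%, 81.3 to 88.4) and 76.0% (74.6 to 77.5) of background regions. The median length of the shortest annotated intron that held the summit was 4402 bp for peaks and 4014 bp for background regions.

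Genes with such a peak often also had one at a start. Of the 379 peaks, 159 (42.0%, 37.1 to 47.0) had a host with a thresholded summit within 500 bp of one of its own starts. Among intronic peaks far from starts this held for 194 (36.5%), a difference that did not pass (Fisher's exact test, two-sided, odds ratio 1.26; p = 0.112). With an outer bound of 3000 bp it did (odds ratio 1.36, exact p = 0.0246), and with an inner bound of 250 bp the odds ratio was 2.12 (exact p = 2.47e-09), where a summit between 250 and 500 bp from a start of its host is by itself counted as a peak at that start. Among background regions the share was 33.4% (31.8 to 35.0). The median number of distinct starts per host was 2 for these peaks, for intronic peaks far from starts and for background regions. Counted by gene, 129 of 348 protein-coding hosts (37.1%) were bound at a start, against 15.9% of the 8636 other protein-coding genes with sequence that met the rule. The genes were not matched for the amount of such sequence. The single nearest start held a peak for 74 of the 379 (19.5%, 15.9 to 23.8), against 14.1% (12.99 to 15.4) of background regions. The next peak of any class was within 2500 bp for 157 (41.4%, 36.6 to 46.5), against 28.8% (25.1 to 32.8) for intronic peaks far from starts. The rule keeps the former within 2000 bp of a protein-coding start and the latter farther away, and most peaks of the list lay at starts. The contrast is therefore in part built into the rule and was not tested.

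GC content was lower at the summits than beside them. It averaged 35.2% within 50 bp of the summit and 42.8% in the window 300 bp away, on the side away from the nearest protein-coding start, and was lower at the summit for 279 of 379 peaks (73.6%, 69.0 to 77.8). In background regions the means were 39.9% and 40.8%, with 51.3% (49.6 to 53.0) lower at the summit. Intronic peaks far from starts had 35.1% and 43.4% and 72.7% (68.8 to 76.3) lower. Peaks at starts had 38.2% and 41.3%, with 58.7% (56.3 to 61.1) lower. Among the 333 peaks with no exonic base in either window, the means were 35.4% and 42.5%, and the difference was -7.145 percentage points with an SD of 12.1. The same restriction left background regions with 39.99% and 39.9%. The strongest 95 of the peaks averaged 33.6% at the summit and the weakest 94 averaged 35.8%. A run of at least 10 A or T bases was in 175 of the 379 summit windows (46.2%) and 114 flank windows (30.1%), against 35.0% and 34.0% in background regions. In intronic peaks far from starts the shares were 45.6% and 27.9%.

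**Figure D3:**
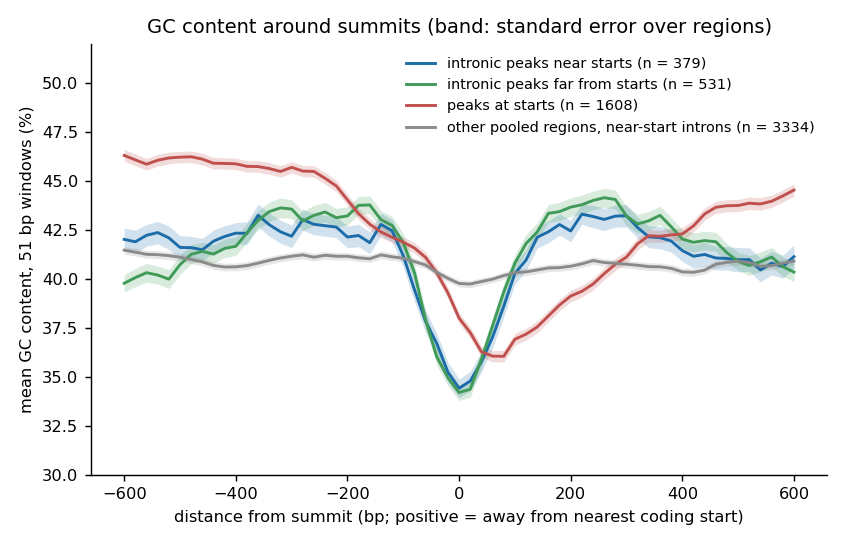
Mean GC content in 51 bp windows (vertical, percent) by distance from the summit (horizontal, bp; positive values point away from the nearest protein-coding start), with a band of 1 standard error over regions. The intronic peaks near starts (blue) dip at the summit like those far from starts (green), and the 3334 background regions (grey) stay almost level. Peaks at starts (red) have a dip displaced to the positive side, with 36.05% at 80 bp, against 46.31% at -600 bp and 44.54% at 600 bp.

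None of 12 consensus elements of known fly factors passed as different between the summit window, 50 bp to either side, and the flank (exact McNemar test, adjusted p from 0.497 to 1). Some were too rare for this test to call. TATCGATA, the CTCF core and the core promoter motifs Ohler 1 and Ohler 6 were each in at most 1 summit window and in no flank window. The Zelda site (3 summit and 0 flank windows) and the Su(Hw) core (4 and 1) were also too rare. The only element past an unadjusted p of 0.05 was the GAGA element, GAGAGAG on either strand, with 5 summit and 15 flank windows (exact p = 0.0414, unadjusted). With the flank on the side toward the start it was called, with 5 summit and 23 flank windows (exact McNemar, adjusted p = 0.0064). Between classes, 3 of 24 comparisons (12.5%) passed, and all 3 were elements less frequent than at starts. TATCGATA, the DRE of housekeeping promoters, was in 1 of 379 summit windows (0.264%) and in 75 of 1608 windows at starts (4.66%; odds ratio 0.0541, Fisher's exact test, adjusted p = 2.42e-05). The shorter CGATA, which it contains, was in 40 (10.6%) against 24.6% (odds ratio 0.361, adjusted exact p = 8.60e-09). The core promoter motif Ohler 7 was in 5 (1.32%) against 6.41% (odds ratio 0.195, adjusted exact p = 1.04e-04). The Ohler 7 call was lost with starts kept clear by 1000 bp and in the stronger part of the list, and with 51 bp windows CGATA alone passed. In the windows of background regions the shares were 0.0900%, 11.3% and 0.690%, and in all 30000 pooled windows 1.05%, 13.7% and 1.75%. Against intronic peaks far from starts none passed, and the smallest unadjusted value belonged to the CTCF core AGNTGGCGC (1 against 10 windows, exact p = 0.0308, adjusted p = 0.167). It passed the exact test with outer bound 3000 bp (adjusted p = 0.024), inner bound 250 bp (0.0461) and windows of 100 bp to either side (0.0286). The GATA site AGATAA was in 27 summit windows (7.12%) and 33 flank windows (8.71%), and in 7.44% of background regions.

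In the same windows none of all possible 7-mers passed as more or less frequent at the summit in the 379 peaks (smallest adjusted exact p = 0.108, McNemar). In the other 2513 peaks, 156 (1.90%) were called more frequent and 150 (1.83%) less frequent. Such numbers of calls cannot be compared directly, because with only 379 pairs the test can call only larger differences. Of those 156, 127 also had more summit than flank windows here, and of the 150, 120 had fewer. By letters, 75 of the 156 held at most 1 G or C, and 138 of the 150 held at least 4. The agreement therefore cannot be told apart from the lower GC content at summits. The 3 words with the smallest p in the other peaks, which contain TATCG on one strand, were led by ACTATCG, which was in 2 of 379 windows (0.528%) against 4.30% of the other peaks.

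With windows of 100 bp to either side, 12 of the 7-mers (0.146%) were called more frequent at the summit and 1 less. In the other peaks 370 (4.52%) were called more frequent at this width. Of the 12, 6 were AT-rich and 6 were related words that hold ACAGT or ACACTG. The most frequent of these related words was ACAGTGG, in 59 of 379 summit windows (15.6%, 12.3 to 19.6) and 13 flank windows (3.43%; exact McNemar, adjusted p = 5.65e-05). TACACTG was in 35 (9.23%) and 5 windows (1.32%, adjusted exact p = 0.00378), and in 9.605% of intronic peaks far from starts and 11.26% of peaks between genes. All 6 were also called in the other 2513 peaks, which were tested separately: ACAGTGG was in 200 summit and 74 flank windows there (adjusted exact p = 3.05e-13). ACAGTGG was in 12.6% (10.1 to 15.7) of intronic peaks far from starts, 6.65% (5.54 to 7.98) of peaks at starts, 6.95% (4.59 to 10.4) of peaks between genes and 4.74% (4.07 to 5.51) of background regions. Any of the 6 was in 135 of the 379 windows (35.6%, 31.0 to 40.6), 39 flank windows (10.3%) and 15.4% (14.2 to 16.7) of background regions. The share was 30.9% (27.1 to 34.9) of intronic peaks far from starts and 29.5% (24.6 to 34.8) of peaks between genes. At starts it was 19.8% (18.0 to 21.9). Among the 95 strongest members, 22 (23.2%, 15.8 to 32.6) held ACAGTGG, against 13 of the 94 weakest (13.8%, 8.26 to 22.2).

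The side and direction of the word were looked at after the calls were seen and carry no test, and each word is written in the direction that most of its sites in the 379 peaks read toward the summit. Of 67 ACAGTGG sites within 100 bp of a summit, 60 read toward it, that is as ACAGTGG on the left and as CCACTGT on the right. In background regions 91 of 168 sites did, and in intronic peaks far from starts, whose values did not choose the word, 57 of 75. The median distance from the summit was 63 bp. Sites were sparse in the first 40 bp (0.429 per kb), most dense from 40 to 80 bp (1.32 per kb, 38 of 40 reading inward) and again sparse from 160 to 200 bp (0.297 per kb). Background regions had 0.259, 0.244 and 0.176 per kb in these bins. TACAGTG, which overlaps ACAGTGG by 6 bases, read inward at 43 of 48 sites (79 of 135 in background regions), and ACACTGA at 30 of 36 (72 of 125). Of the other related words, CACAGTG read inward at 33 of 49 sites (81 of 147), GCACAGT at 26 of 39 (63 of 119) and TACACTG at 26 of 35 (67 of 100). The AT-rich word TATTTAA was in 69 summit and 27 flank windows (adjusted exact p = 0.0107), and 39 of its 73 sites read inward.

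**Figure D4:**
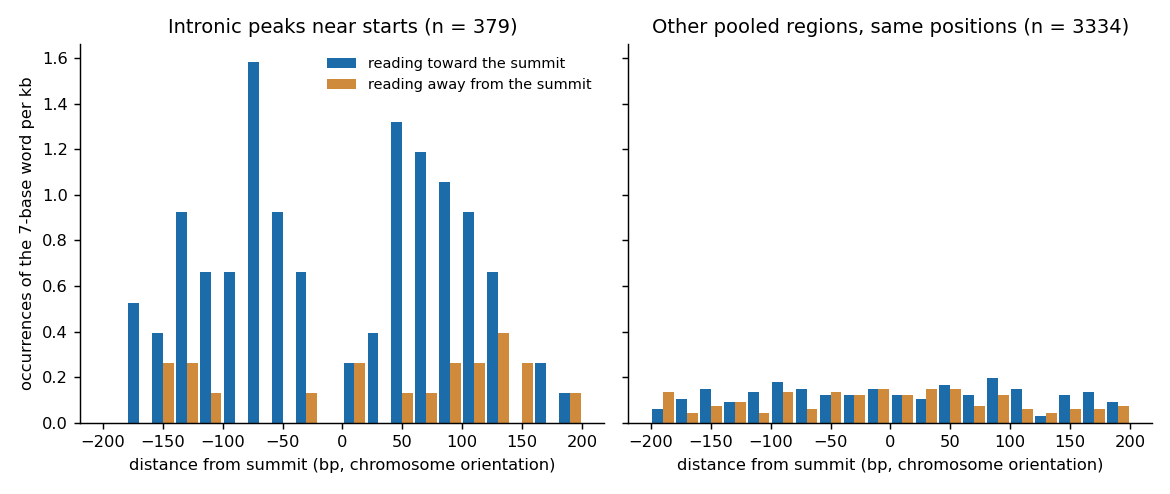
Occurrences of ACAGTGG per kb (vertical) by distance from the summit in 20 bp bins (horizontal), split by whether the word reads toward (blue) or away from (orange) the summit, for the 379 intronic peaks near starts (left) and the 3334 background regions (right). Inward sites form a mound on each side of the summit, and background regions have neither mound.

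The strongest peak with the word was that of Lk6, where it lay 22 bp from the summit and read inward. In norpA it lay at 65 bp, in Trl at 73 bp, in for at 67 bp and in Csk at 55 and 71 bp on the same side. Further hosts were Zw (glucose-6-phosphate dehydrogenase, 73 bp), Raf (a kinase of the MAP kinase cascade, 48 bp), Hsp83 (the Hsp90 chaperone, 56 bp) and Sxl (the sex determination switch, 94 bp). The peaks of ush, CG11050 and ph-p did not hold it within 100 bp.

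The 379 peaks fell in 348 protein-coding and 6 other genes. A single gene hosted 343 of them, 33 lay in 2 overlapping genes and 3 in 3. Of the 354 hosts, 308 had 1 such peak, 38 had 2 and 8 had 3 or more. Peaks overlapped in places: 23 overlapped another region of the list, and 1 pair in Trl shared the same region bounds with summits 205 bp apart.

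NFAT, which encodes a transcription factor related to mammalian NFAT5, held 6 peaks, with signals of 442.7, 244.5, 135.4, 92.40, 82.03 and 67.12. The strongest ranked 81 in replicate 2 and 63 in replicate 3 and lay 1665 bp before an internal start. In all, 3 lay within 2000 bp before this start, 1 before the next start, and 2 after the first start of the gene. Trl held 4, with signals of 457.6, 101.1, 79.05 and 76.93. The 457.6 peak ranked 70 and 66 in the replicates, while the 79.05 peak, 205 bp from it, ranked 4684 in replicate 2 and 2432 in replicate 3. A further 6 peaks lay inside both CG1677 and the noncoding gene CR44357, but their nearest protein-coding starts were those of CBP, brk, Dok, CG42780 and unc-119 (signals 67.73 to 171.7). The shortest annotated intron that held the summit was 73902 bp for 5 of them. It was 863 bp for the peak that also lay inside Dok. CG9837 held 3 (468.1, 197.5 and 72.86), as did HmgZ (445.2, 127.0 and 98.86), the Src kinase gene Src64B (168.4, 105.5 and 69.43) and Svil, which encodes a relative of supervillin (172.6, 121.5 and 107.2).

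**Figure D5:**
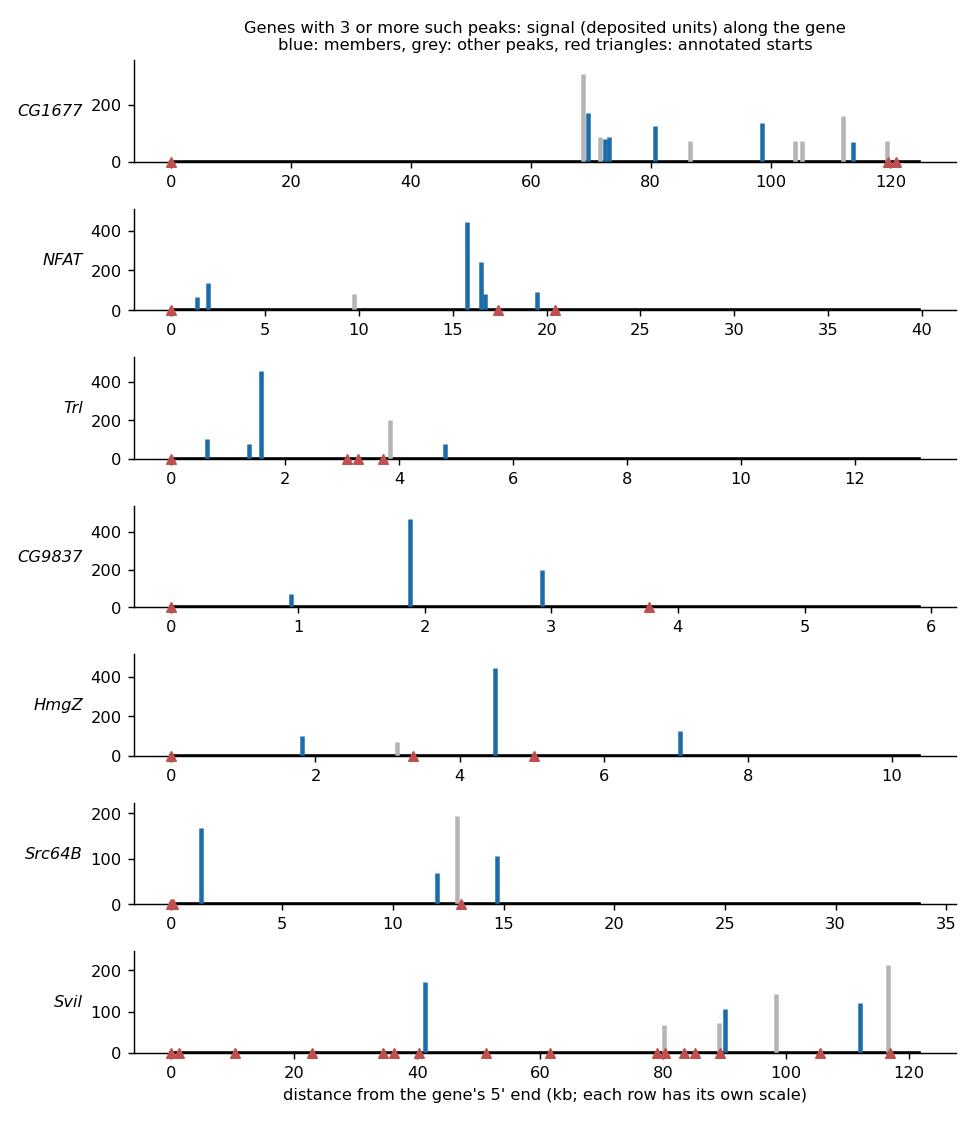
Signal (vertical, deposited units) of peaks along the 7 protein-coding genes with 3 or more intronic peaks near starts, by distance from the 5′ end of the gene (horizontal, kb, each row with its own scale). Blue lines are the intronic peaks near starts, grey lines other peaks and red triangles annotated starts of the gene; in NFAT 3 blue lines stand just before the second start, led by the peak of signal 442.7.

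The genes of 10 lists were compared with all 8984 protein-coding genes that had sequence meeting the rule, of which 348 (3.87%) hosted a peak. The share was higher for genes with more of such sequence, from 11 of 4984 genes with at most 500 bp (0.221%) to 145 of 687 with more than 4000 bp (21.1%), so it has to be read beside the length. RNA-binding regulators had 10 hosts of 34 genes (29.4%) at a median of 3117 bp, against 383 bp over all genes. They were led by brat, a translational repressor of neural stem cell fate (signal 285.6), larp (280.1) and mub (274.4), and included elav (136.3) and Sxl (98.10). Cell junction and cytoskeleton genes had 8 of 40 (median 1478 bp): cno (698.1), the cofilin gene tsr (238.3) and jar (173.4), which encodes myosin VI, were the strongest. Nuclear receptor and ecdysone response genes had 4 of 21 (19.0%, 3299 bp), led by br (156.7), where the nearest start was that of Mur2B. Signalling genes had 7 of 53 (13.2%, 1500 bp), with Lk6 (990.2), InR (483.6) and Mad, the Smad of BMP signalling (277.8), at the top.

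Polycomb and trithorax genes had 3 of 24 (12.5%, 545 bp): ph-p (976.9), Trl (457.6) and kis (87.98). Muscle genes had 3 of 24 (12.5%, 1924 bp), led by mbc (131.3), and neuronal genes 3 of 35 (8.57%, 3294 bp), elav being the strongest. Developmental transcription factors had 3 of 57 (5.26%, 1500 bp), which were ush (1589), px and cnc (72.03). The px peak had a signal of 75.82, with 40.6 in replicate 2 (rank 1962) and 30.11 in replicate 3 (rank 4220). None of 14 insulator and architectural genes (240 bp) and none of 25 cytoplasmic ribosomal protein genes (114 bp) was a host, and both lists had little sequence that met the rule. The lists were drawn up with earlier results known, so these counts are descriptions.

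By chromosome arm, X had 90 of the peaks, or 44.3 per Mb of sequence that met the rule, 3R 41.5, 3L 37.3, 2L 34.7 and 2R 30.7. On X 13.9% (11.4 to 16.7) of the pooled regions meeting the rule were on the list, against 8.17% (6.39 to 10.4) on 2R and 10.9% (9.01 to 13.2) on 3R. Over all classes these shares were 10.7%, 9.90% and 9.82%. On chromosome 4, none of 45 regions meeting the rule was on the list (upper limit of the Wilson interval 7.87%), and of all its 412 regions 8 were (1.94%).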

How the data were processed

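ChIP-seq peak lists of 2 embryo libraries of 1 group were analysed. Per the labels, the authors deposited lists of regions for each replicate and for the pool, each of 30000 regions in dm6, and a list thresholded by the irreproducible discovery rate, which scores how well ranks repeat between replicates. The deposited signal of each region, of unstated scale, gave ranks, and the deposited summit offset gave positions. The aligner and the caller: not given in the sources used here. Sequencing depth is unknown, so intervals cover counting of regions only. Summits were placed on the Ensembl 115 annotation of BDGP release 6 and on the RefSeq Release 6 genome, the same assembly.

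Python 3.11.15 with scipy 1.17.1 gave two-sided Fisher's exact and exact McNemar tests, adjusted by Benjamini-Hochberg within each family (2, 2, 12 and 24 tests, and all 7-mers), and 95% Wilson intervals. The paired 7-mer test was checked on simulated windows. Members, gene lists and tests were chosen with earlier results of these data known. Genes were named if they hosted 1 of the 25 strongest peaks found in both replicates or 3 or more peaks, led a list, or lay at a bound of the rule; Zw, Raf, Hsp83, Sxl and the genes with printed sequence were chosen after their values were seen. Of 328 listed symbols 4 were not matched. The GC comparison and the side and direction of words were added after the data were seen. Regions left off the thresholded list served as background.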

Additional observations from a re-analysis of the deposited data

How the results depend on the processing

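Inner bounds of 250 and 1000 bp, outer bounds of 1500 and 3000 bp, the stronger part of the list (its upper 50%), each replicate left out and other windows, flanks and summit distances were tried. Of the 128 values so obtained, 84 stayed near the reported one: odds ratios kept their direction and side of the threshold, counts stayed within 1.5 times and shares and the GC difference within their 95% intervals. The odds ratio for replicate support turned in the stronger part (0.722 against far introns, 0.749 against starts). With 1 replicate left out, support meant a partner on the thresholded list for the strongest regions of the other replicate. That list was built from both replicates, so this odds ratio was of a different measure. It ranged from 0.906 to 0.932 and from 0.854 to 1.01. That for strong peaks against far introns was 1.29 (inner 1000 bp) and 1.67 (stronger part), neither past the threshold, and ranged from 1.31 to 1.63 with 1 replicate left out. Against starts it was 0.887 (inner 1000 bp) and 0.973 (outer 3000 bp), and 0.879 to 1.06 with 1 replicate left out. For promoter peaks it was 2.12 (inner 250 bp) and 1.36 (outer 3000 bp), both past the threshold.

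The GC difference was -9.27 points in the stronger part, -5.90 with windows of 100 bp to either side and -5.56 with a flank 500 bp away. The members' called 7-mers numbered 4 higher (inner 250 bp), 7 (outer 3000 bp), 12 higher and 1 lower (100 bp to either side), and 1 with either replicate left out. In other peaks they numbered 52 higher and 39 lower (stronger part), 16 and 14 (51 bp windows), 370 and 420 (100 bp to either side), 304 and 384 (flank 500 bp away), 544 and 638 (flank toward the start) and 233 lower (inner 1000 bp), with 79 to 120 lower with 1 replicate left out. Elements called against the flank numbered 1, the GAGA element, with the flank toward the start. Between classes they numbered 6 (inner 250 bp), 6 (100 bp to either side) and 1 (51 bp). Hosts were 2.74% (inner 1000 bp), 3.27% (outer 1500 bp), 4.502% (outer 3000 bp) and 2.15% (stronger part) of genes, and the share on the list was 9.09% (inner 1000 bp) and 5.52% (stronger part). The causes were not tested. No paired analysis was possible because the samples form 1 group.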
